A study of Mus musculus with 16 samples.

Results

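Solute carriers are membrane proteins that move small molecules such as sugars, amino acids, metals, nucleosides and ions into or out of cells and organelles. The genes described here were taken from the deposited table of sorted mouse microglia as every row whose deposited symbol reads Slc, a family number, the letter a and a member number. Of 210 such rows, 141 had a mean log2 RPKM (reads per kilobase of gene, scaled to the size of the library) of 0 or more over all 16 libraries, out of 17951 genes listed. The members were thus chosen by their mean level, so their levels are given as a description. Slc43a3 and Slc2a3 lay just inside the threshold with mean log2 RPKM of 0.01 and 0.02, and Slc25a15 lay just outside it at -0.02. Of the 141 members, 136 were carriers and 5 only carry such a symbol (Slc9a3r1, Slc7a6os, Slc4a1ap, Slc2a4rg-ps and 1 row to which the reference annotation gives another name).

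Most plasma membrane carriers either let a solute run down its gradient, as the glucose transporters of the SLC2 family do, or couple its uptake to sodium or protons. Others sit in lysosomes, where they release the products of digestion into the cytosol, or in the inner mitochondrial membrane, where the SLC25 family exchanges nucleotides, phosphate, iron and metabolites. Microglia are the resident phagocytes of the brain, and several carriers of lysosomes and phagosomes, such as Slc29a3, Slc15a3 and Slc11a1, are known from macrophages and related cells.

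The libraries came from Cd11b+ and Cd45+ microglia of mice injected with Methoxy-X04 (Me-X04), a dye that enters the brain and stains β-sheet aggregates of amyloid-β (Aβ), and sorted by their uptake of it. The study's methods add Cx3cr1 to the gate. There were 7 libraries of dye-negative microglia from wild-type (WT) mice, labelled 2 months old, 5 of dye-negative microglia from transgenic mice (TG Me-X04-) and 4 of dye-positive microglia from transgenic mice (TG Me-X04+), labelled 6 months old (the study's methods give other ages). The transgenic mice were 5xFAD, which carry human transgenes with familial Alzheimer's disease mutations, driven in neurons by the Thy1 promoter. Dye-negative and dye-positive libraries from 5xFAD mice that share a number came from 1 animal by their labels. In the labels age goes with genotype, so that the effects of age and transgene cannot be told apart in either comparison with WT.

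Between 15623664 and 27579017 reads per library fell on the listed genes. After removing each group's mean, the leading principal component held 37.8% of the variance and split the libraries into 2 sets, set A with WT 1 to 3, TG Me-X04- 1 and 2 and TG Me-X04+ 1 and 2, and set B with the others. The methods name 2 sequencers for these libraries, but which library ran on which is not given in the sources used here. Genes of the mitochondrial genome took 55.2% or more of all reads in dye-positive libraries of set A, 31.3% or more in those of set B, 20.6% to 44.8% in TG Me-X04- and 12.6% to 31.3% in WT libraries. The 8 microglia markers summed to between 4196 and 7888 RPKM in every library, whereas the sums of the other marker lists reached at most 1.91 RPKM (neuron), 5.23 (astrocyte), 17.7 (oligodendrocyte), 12.6 (endothelial), 4.88 (mural), 41.5 (choroid plexus), 21.4 (monocyte or border macrophage), 2.35 (erythrocyte) and 26 (neutrophil). Tmem119, a marker of homeostatic microglia, was the microglia marker called between the dye fractions, at a log2FC of -1.58. Of the markers of other cells, Flt1 (endothelial) and Cspg4 (mural) were called higher there, while Pecam1, Cdh5 and the mural Acta2 had log2FC of -2.47, -2.41 and -0.75 and were not called.

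Slc29a3, the lysosomal nucleoside transporter, was the most abundant member, with a mean of 7.42 log2 RPKM over all libraries. It was followed by Slc7a8, a neutral amino acid exchanger, at 6.01, Slc16a6, of the monocarboxylate transporter family, and Slc6a6, the taurine transporter, both at 5.19, and Slc25a5, a mitochondrial ADP/ATP carrier, at 4.96. None of these 5 members was called in any of the 3 comparisons made below, but against WT Slc7a8 and Slc16a6 were called with quantile normalization and Slc6a6 and Slc25a5 with a term for the sets. Slc25a5 has processed pseudogenes and the authors kept reads with several alignments, so its reads may be shared with them.

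**Figure D1:**
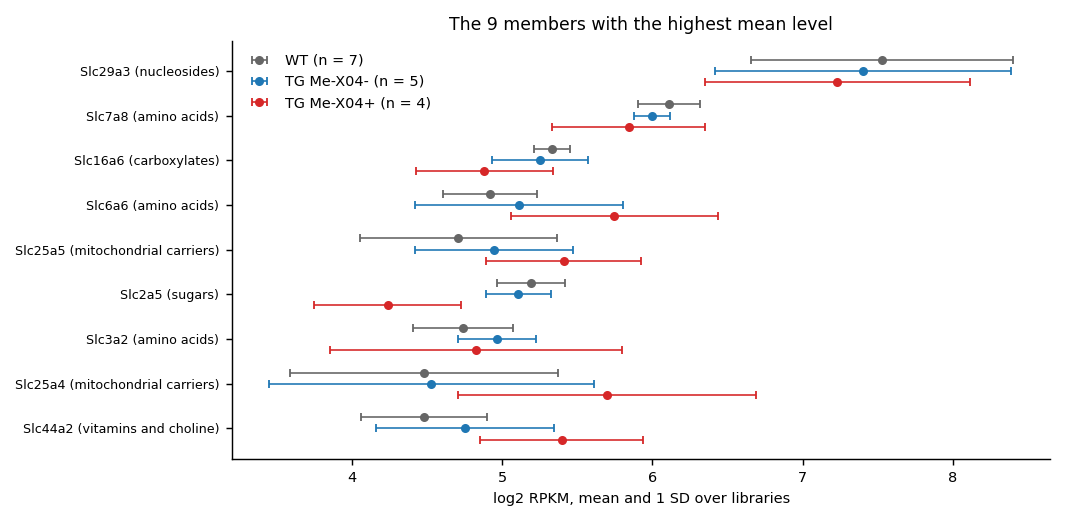
Mean level (log2 RPKM, horizontal axis) of the 9 members with the highest mean over all libraries, with bars of 1 SD, by group (7 libraries of WT, 5 of TG Me-X04- and 4 of TG Me-X04+). Slc29a3 stands highest with 7.53, 7.40 and 7.23, and the TG Me-X04+ bar of Slc2a5 does not reach that of either other group.

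Some of the highest members differed widely between the 2 sets of libraries, which were themselves drawn from these values. Set A minus set B was 1.64 on the log2 scale for Slc29a3, 0.87 for Slc6a6 and -0.88 for Slc25a5. It was smaller for Slc7a8 and Slc16a6, at -0.30 and -0.33. Slc29a3 ranged from 8.29 to 8.55 log2 RPKM in the WT libraries of set A and from 6.72 to 6.91 in those of set B. The same direction was seen for Slc25a4, the other abundant ADP/ATP carrier, at 5.10 to 5.70 and 3.54 to 3.92. Relative to the group means, 8 members were higher in set A by 1 or more on the log2 scale and 16 were higher in set B. Together these are 17% of the members, beside 24.1% of the 13324 genes with a mean of 0 or more. The median SD over libraries was 0.43 for WT, 0.40 for TG Me-X04- and 0.60 for TG Me-X04+ libraries.

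Whether dye uptake went with carrier expression was asked first, by TG Me-X04+ against TG Me-X04- microglia. Calls required a log2 fold change (log2FC) of 0.7 or more in size with an adjusted p below 0.05, from limma on the deposited values with Benjamini-Hochberg (BH) adjustment over all 17951 genes. Of the 141 members, 5 rose and 5 fell, 3.55% in each direction. Over all genes, 3.44% were called higher and 2.06% lower, or 4.05% and 1.85% of genes with a mean of 0 or more. The members' share called higher was thus near the background. Their share called lower was above it, on 5 members, and this difference was not tested. The groups did not overlap for 12 members (8.51%), beside 7.93% of all genes. The median log2FC was -0.05 over the members and -0.09 over all genes, with 68 members above 0 and 73 below. The counts moved with the scaling. Quantile normalization gave 3 higher and 8 lower (2.13% and 5.67%), beside 2.35% and 2.27% of all genes. Scaling by reads outside mitochondrial genes gave 2 higher and 12 lower (1.42% and 8.51%), beside 1.72% and 4.02% of all genes. It shifted the median of all genes by -0.27.

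**Figure D2:**
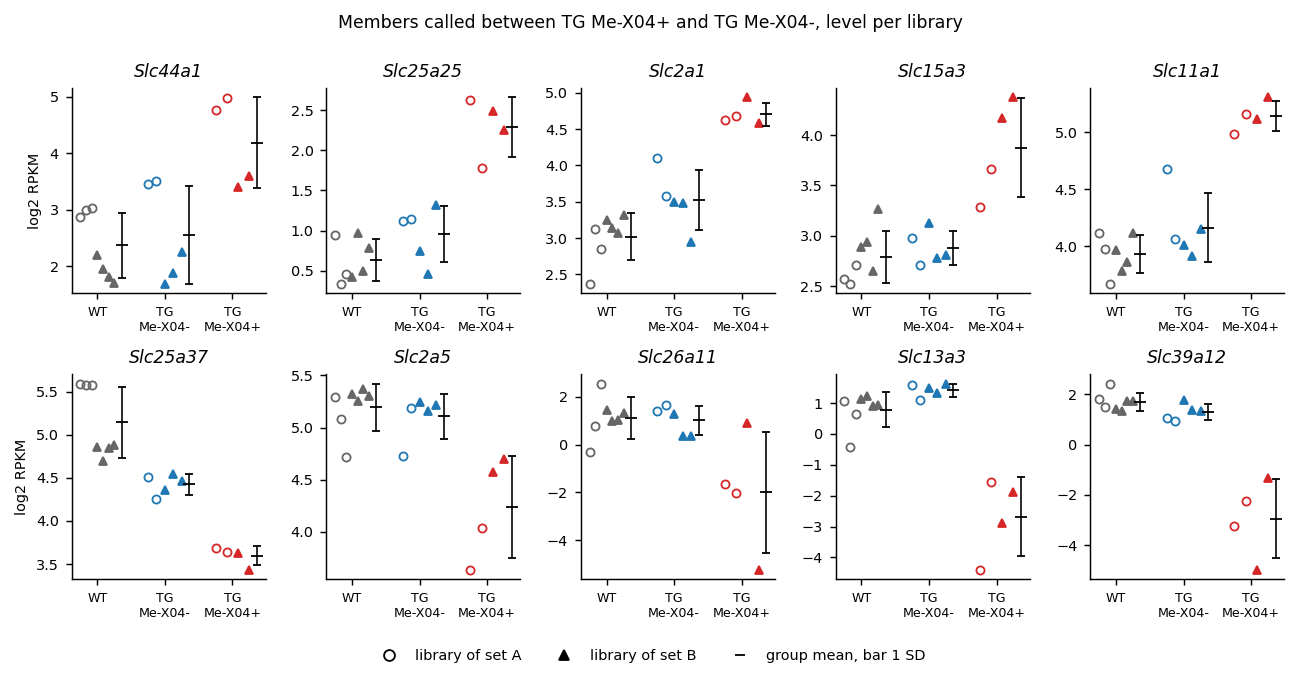
Level (log2 RPKM, vertical axis, scaled per panel) of the 10 members called between the dye fractions in each library, by group, with circles for set A, triangles for set B and the group mean with 1 SD in black. In 8 of the 10 panels every TG Me-X04+ library lies outside the range of the TG Me-X04- libraries, and the exceptions are Slc44a1 and Slc26a11.

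Among the 13 sugar carriers 1 rose and 1 fell between the dye fractions. Slc2a1 (GLUT1, chr4:119108711-119137983 on GRCm38, plus strand), which lets glucose into cells, stood at 4.62, 4.68, 4.94 and 4.59 log2 RPKM in TG Me-X04+ libraries, compared to 4.10, 3.58, 3.49, 3.49 and 2.94 in TG Me-X04- libraries, with 2.37, 3.13 and 3.32 as the lowest, median and highest of the WT libraries. Every TG Me-X04+ library was above every other library. The rise from TG Me-X04- to TG Me-X04+ was 2.27-fold (log2FC 1.19, SE 0.24, limma, BH adjusted p = 0.00689), at 0.81 within set A and 1.46 within set B. The call held with each library left out and in all 8 alternative settings. Slc2a1 is also an abundant carrier of brain endothelium. The 3 listed endothelial markers summed to 1.22 to 7.86 RPKM in TG Me-X04+, 1.61 to 2.63 in TG Me-X04- and 2.31 to 12.6 in WT libraries, with log2FC between the dye fractions of 3.55 for Flt1, which was called, and -2.47 for Pecam1 and -2.41 for Cdh5, which were not. Against WT, Flt1 was called higher and Pecam1 lower, and each of the 3 was at 0 reads in at least 1 library. Their part in the result was not tested.

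Slc2a5 (GLUT5, chr4:150119283-150144169, plus strand), the fructose transporter by which microglia are often told from other brain cells, was the most abundant sugar carrier. It stood at 3.64, 4.04, 4.57 and 4.69 log2 RPKM in TG Me-X04+ and at 4.73, 5.19, 5.25, 5.16 and 5.22 in TG Me-X04- libraries, and the WT libraries ran from 4.72 over a median of 5.29 to 5.37. The TG Me-X04+ libraries lay below both other groups, those of set A lowest. The log2FC was -0.87 (SE 0.22, limma, BH adjusted p = 0.0278), or -1.12 in set A and -0.57 in set B. The call was lost with only the 2 groups compared (adjusted p = 0.101 by limma) and without any 1 of 5 libraries (TG Me-X04- 3, 4 or 5 or TG Me-X04+ 1 or 2), where the log2FC stayed between -1.02 and -0.67 and the adjusted p reached 0.0807.

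The other 11 sugar carriers were not called. The lowest log2FC was that of Slc50a1, a sugar carrier of the SWEET type, at -1.51 (SE 0.75, limma, BH adjusted p = 0.293). Its TG Me-X04+ libraries read -0.25 and -0.82 log2 RPKM in set A and 2.31 and 2.51 in set B. Slc2a3 (GLUT3), a further glucose transporter, was near the threshold of the table, with -2.31, -1.54, 0.79 and 2.04 in TG Me-X04+ libraries, so that its sets went opposite ways against TG Me-X04- (-2.09 in set A and 0.38 in set B). Of 20 genes that work on glucose inside the cell, 6 rose (Aldoa, Tpi1, Pgk1, Eno1, Pkm and Ldha, with log2FC of 1.02 to 1.81) and Txnip, which restrains glucose uptake, fell by 1.31 on the log2 scale. The other listed genes of glycolysis were not called. Of these, Hk1, Hk2, Hk3 and Pfkm had log2FC of -0.19, -0.31, -0.99 and -0.82, and Gpi1, Pfkl, Pfkp, Gapdh and Pgam1 of 0.15 to 0.99. Beside this list and the partner lists below, 3.44% of all genes were called higher and 2.06% lower between the dye fractions.

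Of the 25 metal carriers 1 rose and 1 fell. Slc11a1 (NRAMP1, chr1:74375195-74386062, plus strand) moves iron and manganese out of the phagosomes of macrophages. Its TG Me-X04+ libraries read 4.99, 5.16, 5.12 and 5.31 log2 RPKM, its TG Me-X04- libraries 4.68, 4.07, 4.01, 3.92 and 4.15, and its WT libraries from 3.67 over a median of 3.97 to 4.12. Every TG Me-X04+ library was above every other library, and the nearest was TG Me-X04- 1. The rise was 1.97-fold (log2FC 0.98, SE 0.18, limma, BH adjusted p = 0.00384) and was seen in both sets, at 0.70 in set A and 1.19 in set B. The call held with every library left out and was lost, of the 8 alternatives, with quantile normalization (log2FC 0.60, adjusted p = 0.079 by limma). Slc11a1 is also a gene of monocytes and neutrophils. The 7 listed markers of monocytes and border macrophages summed to 3.98 to 21.4 RPKM in TG Me-X04+ and 3.71 to 10.2 in TG Me-X04- libraries and the 3 of neutrophils to 0.40 to 21.0 and 0.49 to 26 RPKM, none was called between the dye fractions, and their part in the result was not tested.

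Slc39a12 (ZIP12, chr2:14388316-14494977, plus strand), a zinc importer, fell. It had 3, 8, 0 and 26 reads in the TG Me-X04+ libraries and 101, 113, 279, 196 and 182 in the TG Me-X04- libraries, and the WT libraries had 136 to 247. In log2 RPKM these were -3.22, -2.25, -4.97 and -1.32 against 1.05, 0.95, 1.77, 1.39 and 1.32, with a WT median of 1.72. No TG Me-X04+ library came near the other groups. The log2FC was -4.24 (SE 0.54, limma, BH adjusted p = 0.000287), and it was -1.58 with a pseudocount of 1 RPKM. In bulk RNA, fewer cells with a transcript and less of it per cell cannot be told apart. Its mean level of 0.41 met the threshold through the WT and TG Me-X04- libraries, as the mean over TG Me-X04+ libraries was -2.94. Slc39a12 is also known from astrocytes. The 5 listed astrocyte markers summed to 0.66 to 3.51 RPKM for WT, 1.72 to 5.23 for TG Me-X04- and 1.14 to 1.87 for TG Me-X04+ libraries. Gfap and S100b were down to 0 reads in a library. Between the dye fractions the markers had log2FC of -1.86 (Aldoc), -1.37 (Aqp4), -0.98 (Gfap), -0.72 (S100b) and -0.58 (Atp1b2), all in the direction of Slc39a12, and none was called. Their part in the result was not tested.

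The remaining 23 metal carriers were not called, and their log2FC ranged from -0.76 to 0.64. Slc31a2, a copper carrier of endosomes and lysosomes, was the most abundant at 4.53 log2 RPKM over all libraries, with a log2FC of -0.27 (SE 0.27, limma, BH adjusted p = 0.66). Slc11a2, the paralogue of Slc11a1 in endosomes, stood at 2.42 ± 0.20 (SD, n = 7) for WT, 2.32 ± 0.26 (n = 5) for TG Me-X04- and 2.32 ± 0.83 (n = 4) for TG Me-X04+ libraries. The lowest of the 23 was Slc40a1 (ferroportin), which exports iron. Among 16 listed genes of iron, copper and zinc handling, Fth1, the heavy chain of the iron store ferritin, rose by 1.54 and no gene fell.

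Of the 20 amino acid carriers 1 rose and none fell. Slc15a3 (PHT2, chr19:10839727-10859362, plus strand) carries histidine and small peptides out of endosomes and lysosomes. It stood at 3.29, 3.66, 4.17 and 4.38 log2 RPKM in TG Me-X04+ and at 2.98, 2.71, 3.13, 2.78 and 2.81 in TG Me-X04- libraries, with WT libraries from 2.53 over a median of 2.71 to 3.27. The groups did not overlap, and the set B libraries of TG Me-X04+ were highest. The rise was 1.99-fold (log2FC 0.99, SE 0.23, limma, BH adjusted p = 0.0189), at 0.63 in set A and 1.37 in set B. The call was lost without TG Me-X04+ 3 or 4 (log2FC 0.83 or more, adjusted p up to 0.0567 by limma) and in 3 of 8 alternatives, namely quantile normalization, scaling by reads outside mitochondrial genes and only the 2 groups compared. Of its exonic bases, 28.1% overlap exons of Tmem132a on the other strand, and the strand used in counting is not given in the sources used here.

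The other amino acid carriers lay between a log2FC of -0.72 and 0.80. Slc7a8, the most abundant, stood at 5.30, 5.52, 6.34 and 6.21 log2 RPKM in TG Me-X04+ libraries, so its sets went opposite ways, at -0.62 in set A and 0.30 in set B. The lowest log2FC was that of Slc43a2, a neutral amino acid transporter, at -0.72 (SE 0.24, limma, BH adjusted p = 0.091). Slc15a4, the closest relative of Slc15a3 and also a carrier of endolysosomes, had a log2FC of -0.57 (SE 0.23), with an adjusted p of 0.178 by limma. Of 18 listed genes of amino acid sensing, Rragd, a GTPase that recruits mTORC1 to lysosomes, rose by 1.92 and none fell. The median log2FC of the 18 genes was -0.44. In TG Me-X04+ against WT, 1 of them was called higher and 5 lower, beside 8.25% and 6.02% of all genes.

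None of the 4 nucleoside and nucleobase carriers was called. Slc43a3, which takes up purine nucleobases, came closest, with 1.69, 1.36, 1.33 and 1.20 log2 RPKM in TG Me-X04+ and -1.42, 0.71, 0.13, 0.03 and 0.06 in TG Me-X04- libraries (log2FC 1.49, SE 0.43, limma, BH adjusted p = 0.0534). All 4 TG Me-X04+ libraries lay above the others, and it was called higher in 4 of 8 alternatives (quantile normalization, a pseudocount of 1 RPKM, a term for the sets and voom, adjusted p down to 0.00962). Slc43a3 met the threshold for members only through these TG Me-X04+ libraries. The abundant Slc29a3 had a log2FC of -0.17 (SE 0.55) and Slc29a1, the nucleoside transporter of the plasma membrane, one of -0.86 (SE 0.44, limma, BH adjusted p = 0.321), where TG Me-X04+ 1 at -0.16 lay far below TG Me-X04+ 2 to 4 at 1.81 to 2.66. Without that library the log2FC of Slc29a1 was -0.27. Of 12 listed genes of purine and pyrimidine handling, Uck2, a uridine kinase, rose by 2.69 and Ada, adenosine deaminase, fell by 1.70 on the log2 scale. Uck2 had at most 16 reads in any TG Me-X04- library and 123 in any TG Me-X04+ library, which limits the precision of its fold.

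Of the 21 ion carriers 1 fell and none rose. Slc26a11 (chr11:119355557-119381079, plus strand), an anion exchanger of sulfate and chloride, had 14, 12, 151 and 0 reads in TG Me-X04+ libraries, where TG Me-X04- libraries had 113 to 237. Its levels of -1.64, -2.01, 0.89 and -5.24 log2 RPKM overlapped those of TG Me-X04-, at 1.39, 1.65, 1.27, 0.35 and 0.38. The log2FC was -3.01 (SE 0.85, limma, BH adjusted p = 0.0465), and the call was lost without any 1 of 8 libraries (each of these 9 but TG Me-X04+ 3), with a log2FC between -3.97 and -1.93. It was also lost in 4 of 8 alternatives, namely quantile normalization, a pseudocount of 1 RPKM, only the 2 groups compared and voom, limma's test for counts, on the recovered reads (adjusted p up to 0.14 by limma). Its mean over TG Me-X04+ libraries was below 0, so the WT and TG Me-X04- libraries took it over the threshold. Slc12a2 (NKCC1), which takes up sodium, potassium and chloride, had the highest log2FC of the ion carriers, with 4.84, 4.92, 4.37 and 4.49 log2 RPKM in TG Me-X04+ above 4.05, 4.02, 3.28, 3.18 and 3.67 in TG Me-X04- libraries (1.01, SE 0.32, limma, BH adjusted p = 0.079). The range of its WT libraries, from 3.50 to 5.15, held all TG Me-X04+ libraries and some but not all of the TG Me-X04- libraries. Of 13 listed genes of the sodium pump, of kinases that act on these carriers and of chloride and proton channels and exchangers, 2 rose, among them the pump subunit Atp1b3, by 1.08.

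Among the 6 carboxylate carriers, Slc13a3 (NaDC3, chr2:165405028-165473230, minus strand), which takes up dicarboxylates such as succinate with sodium, fell. It had 2, 25, 14 and 31 reads in TG Me-X04+ libraries, where TG Me-X04- libraries had 220 to 397. The levels were -4.40, -1.56, -2.88 and -1.89 log2 RPKM against 1.58, 1.10, 1.48, 1.34 and 1.60, with WT libraries from -0.42 over a median of 0.95 to 1.21. The groups were far apart in both sets, at -4.32 and -3.86. The log2FC was -4.10 (SE 0.51, limma, BH adjusted p = 0.000247), or -1.64 with a pseudocount of 1 RPKM, and the call held with each library left out. As with Slc39a12, the WT and TG Me-X04- level carried it over the threshold. The 3 monocarboxylate carriers of lactate and pyruvate, Slc16a1, Slc16a3 and Slc16a7, had log2FC of 1.35, 1.40 and 1.36 with adjusted p of 0.0849, 0.306 and 0.0648 by limma. With a term for the sets of libraries all 3 were called. Of 8 listed genes that work with lactate and pyruvate carriers, Ldha, named above, was the one called.

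Of the 27 SLC25 carriers 1 rose and 1 fell. Slc25a25 (chr2:32414487-32451445, minus strand), which exchanges ATP-magnesium for phosphate across the inner mitochondrial membrane, stood at 2.63, 1.77, 2.48 and 2.25 log2 RPKM in TG Me-X04+ and at 1.12, 1.15, 0.74, 0.45 and 1.32 in TG Me-X04- libraries. The WT libraries ran from 0.34 over a median of 0.49 to 0.96, so both other groups lay below every TG Me-X04+ library. The rise was 2.51-fold (log2FC 1.33, SE 0.29, limma, BH adjusted p = 0.0112), at 1.07 in set A and 1.53 in set B. The call held with each library left out and was lost with scaling by reads outside mitochondrial genes and with only the 2 groups compared (adjusted p up to 0.0549 by limma).

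Slc25a37 (mitoferrin 1, chr14:69241848-69285112, minus strand), which brings iron into mitochondria, fell. It stood at 3.69, 3.63, 3.63 and 3.43 log2 RPKM in TG Me-X04+ and at 4.51, 4.25, 4.36, 4.54 and 4.46 in TG Me-X04- libraries, and the WT libraries ran from 4.69 over a median of 4.88 to 5.59. The 3 groups did not overlap, with WT highest and TG Me-X04+ lowest. The log2FC was -0.83 (SE 0.22, limma, BH adjusted p = 0.0315), at -0.72 in set A and -0.92 in set B. With the animal as a block the adjusted p was 0.0772 by limma, and the call was lost without any 1 of 7 libraries (each but TG Me-X04- 2 and TG Me-X04+ 1), where the log2FC stayed between -0.87 and -0.77. Slc25a28, its paralogue mitoferrin 2, had a log2FC of -0.23 (SE 0.30).

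Of the 4 vitamin and choline carriers, Slc44a1 (CTL1, chr4:53440413-53622478, plus strand), a choline transporter, rose. Its TG Me-X04+ libraries read 4.76 and 4.98 log2 RPKM in set A and 3.40 and 3.60 in set B, and its TG Me-X04- libraries 3.45 and 3.50 in set A and 1.70, 1.89 and 2.25 in set B. The groups overlapped over all libraries and were apart within each set. The rise was 3.09-fold (log2FC 1.63, SE 0.45, limma, BH adjusted p = 0.0437). The call was lost without any 1 of 5 libraries (TG Me-X04- 3, 4 or 5 or TG Me-X04+ 1 or 2) and in 3 of 8 alternatives (quantile normalization, scaling by reads outside mitochondrial genes and only the 2 groups compared), with a log2FC of 1.35 or more. No member was called among the 7 carriers of organic anions, cations and bile acids, the 5 nucleotide sugar carriers of the Golgi, the 2 fatty acid carriers and the 2 others.

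**Figure D3:**
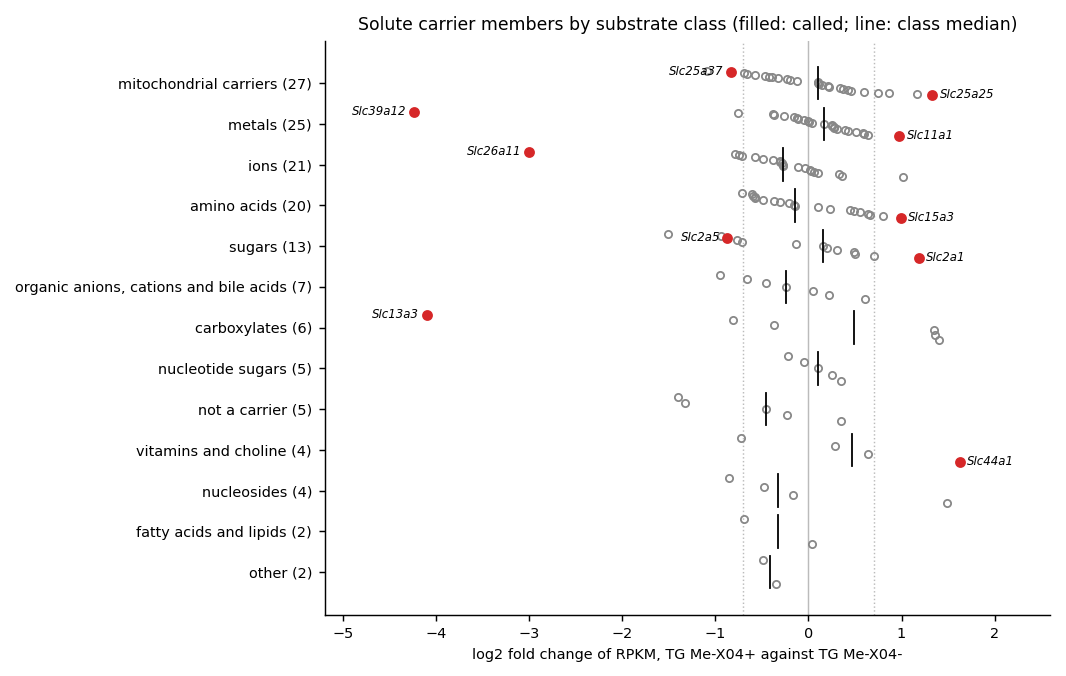
The log2FC of TG Me-X04+ against TG Me-X04- (horizontal axis, dotted lines at the threshold of 0.7) for the 141 members by substrate class, with the class size in brackets, called members filled and a line at each class median. Each of the classes sugars, metals and SLC25 (mitochondrial) carriers holds 1 called member on either side of 0, and class medians run from -0.46 to 0.49.

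For the 5 members whose calls held with every library left out, the 250 bases before the start of transcription are shown, since a reader may wish to see what lies before the genes that moved. They are from RefSeq on GRCm38.p6, which holds such a window for 104 of the 141 members, and are written from 5′ to 3′ on the strand of the gene. Distances are counted from the RefSeq start, which differs from the gene ends given above from Gencode, so that windows can run into those coordinates. Searched on both strands were the E-box CACGTG, the hypoxia response core ACGTG (which any E-box also holds), the AP-1 motif TGACTCA and the PU.1-type motif GAGGAAGT, and matches are in capitals.
Slc2a1, chr4:119108495-119108744, plus strand: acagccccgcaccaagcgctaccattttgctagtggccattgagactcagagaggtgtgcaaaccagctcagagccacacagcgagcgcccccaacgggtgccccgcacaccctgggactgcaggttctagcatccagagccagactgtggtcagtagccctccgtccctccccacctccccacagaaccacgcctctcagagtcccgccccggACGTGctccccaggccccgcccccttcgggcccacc
Slc11a1, chr1:74374953-74375202, plus strand: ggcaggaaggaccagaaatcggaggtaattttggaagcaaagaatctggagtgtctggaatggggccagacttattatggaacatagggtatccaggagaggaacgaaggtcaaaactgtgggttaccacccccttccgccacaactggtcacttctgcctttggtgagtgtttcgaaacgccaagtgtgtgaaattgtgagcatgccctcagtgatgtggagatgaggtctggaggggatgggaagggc
Slc25a25, first of 3 starts, chr2:32451471-32451720, minus strand: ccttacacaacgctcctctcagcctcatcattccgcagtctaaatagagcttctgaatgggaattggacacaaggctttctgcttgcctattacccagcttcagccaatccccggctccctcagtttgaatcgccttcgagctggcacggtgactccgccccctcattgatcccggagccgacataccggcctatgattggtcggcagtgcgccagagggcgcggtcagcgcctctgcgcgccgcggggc
Slc39a12, chr2:14388148-14388397, plus strand: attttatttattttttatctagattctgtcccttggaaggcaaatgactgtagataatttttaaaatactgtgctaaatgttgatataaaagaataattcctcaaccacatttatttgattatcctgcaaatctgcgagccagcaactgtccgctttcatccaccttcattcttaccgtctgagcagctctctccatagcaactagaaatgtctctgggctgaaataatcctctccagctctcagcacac
Slc13a3, chr2:165473198-165473447, minus strand: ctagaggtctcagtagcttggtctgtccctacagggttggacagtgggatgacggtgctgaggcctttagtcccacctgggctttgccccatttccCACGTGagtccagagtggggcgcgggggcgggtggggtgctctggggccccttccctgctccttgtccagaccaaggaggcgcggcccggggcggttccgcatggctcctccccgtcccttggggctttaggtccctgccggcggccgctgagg

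The window of Slc2a1, which rose, holds 1 hypoxia response core, 36 bases before the RefSeq start and at the edge of the Gencode gene, and that of Slc13a3, which fell, holds 1 E-box, 154 bases before it. The windows of Slc11a1, Slc39a12 and all 3 starts of Slc25a25 hold none of the 4 motifs. Of 32851 windows of the same length, 6.02% hold the E-box, 16.6% the hypoxia response core, 4.46% the AP-1 motif and 2.44% the PU.1-type motif. These are matches of letters in a short window and say nothing of binding.

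The difference between the dye fractions can be read in each set of libraries without shared samples. Both sets gave the same sign for 101 of the 141 members (71.6%), beside 62.9% of genes with a mean of 0 or more. All 10 called members were among the 101, although their calls rest on both sets. Across the 141 members the differences of the sets had a Pearson r of 0.63, beside 0.45 across genes with a mean of 0 or more. Slc39a12, Slc13a3 and Slc26a11, which lie far from the rest, met the threshold through the WT and TG Me-X04- libraries, and genes within a library share its depth and composition. In set A alone, with 2 libraries against 2, limma called no member, with 25 at an unadjusted p under 0.05, and in set B alone it called 13 higher and 5 lower. Of all genes, 0.351% were called higher and 0.123% lower in set A, and 7.4% and 5.2% in set B.

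**Figure D4:**
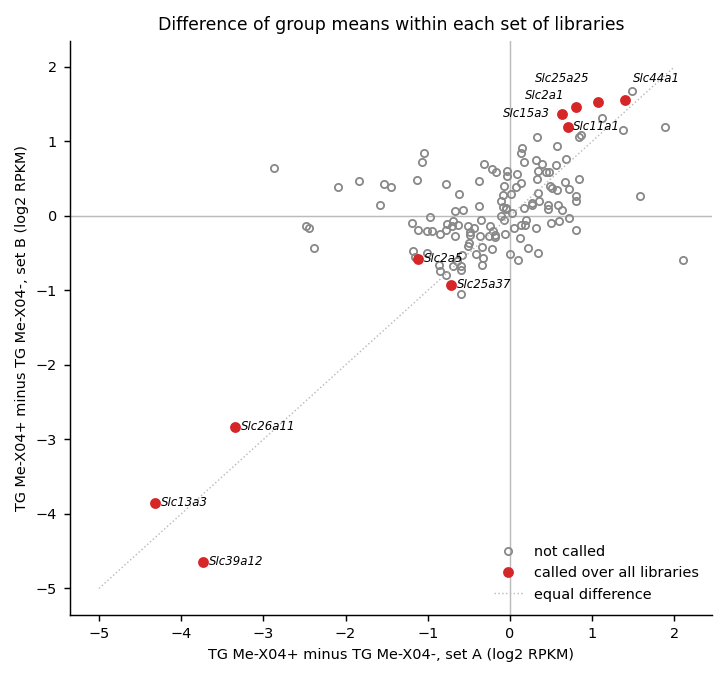
Difference of TG Me-X04+ and TG Me-X04- group means (log2 RPKM) for the 141 members, in set A on the horizontal axis and in set B on the vertical axis, with the 10 members called over all libraries filled and a dotted line where the differences are equal. Slc39a12, Slc13a3 and Slc26a11 lie at -2.84 or lower in both sets, and the 5 members that rose lie at 0.63 or higher in both.

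TG Me-X04- against WT microglia asked what differed in transgenic mice without dye uptake. No member was called in either direction by limma, with 8 members at an unadjusted p under 0.05, and none was called by voom on the recovered reads. Over all genes 0.189% were called higher and 0.0111% lower. The groups did not overlap for 3 members (2.13%), beside 1.06% of all genes. These were Slc25a37, Slc17a5 and Slc5a3, with log2FC of -0.72 (SE 0.19), 0.74 (SE 0.24) and -0.69 (SE 0.24) and adjusted p between 0.227 and 0.649 by limma. Slc25a37 was called lower with a term for the sets of libraries (log2FC -0.71, adjusted p = 0.0254 by limma), and the 2 sets differed in size, with -1.20 for set A and -0.36 for set B.

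TG Me-X04+ against WT microglia differ in genotype, age and dye uptake at once, and share their libraries with the comparisons above. Of the 141 members 12 rose and 10 fell (8.51% and 7.09%), beside 8.25% and 6.02% of all genes and 9.17% and 5.82% of those with a mean of 0 or more. Here the members' share was near the background in both directions. The groups did not overlap for 21 members (14.9%), beside 10.5% of all genes. The 10 members called between the dye fractions were also called here, in the same direction, from -4.63 for Slc39a12 to 1.82 for Slc44a1. With scaling by reads outside mitochondrial genes 11 rose and 17 fell (7.8% and 12.1%), beside 6.84% and 8.51% of all genes, whose median shifted by -0.16. With quantile normalization 13 rose and 17 fell (9.22% and 12.1%), beside 7.69% and 6.61% of all genes.

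Of the 12 members called here and not between the dye fractions, 7 rose. Slc43a3 rose most, from WT libraries at -1.42 to 0.07 (median -0.58) to the 4 TG Me-X04+ libraries named above (log2FC 2.10, SE 0.41, limma, BH adjusted p = 0.00167). Its mean level met the threshold for members only through those TG Me-X04+ libraries, so its place among the members depends on this rise. Slc17a5 (sialin), which exports sialic acid from lysosomes, ran from 1.89 over a median of 2.20 to 2.41 log2 RPKM in WT libraries. It stood at 3.45, 3.18, 2.50, 2.81 and 2.56 in TG Me-X04- and at 4.03, 4.05, 2.93 and 3.04 in TG Me-X04+ libraries. All transgenic libraries thus lay above all WT libraries, and the dye fractions overlapped (log2FC against WT 1.35, SE 0.26, limma, BH adjusted p = 0.00169). Slc36a4, which takes up proline and tryptophan, read 2.49, 3.68, 2.37 and 2.39 in TG Me-X04+ against 1.02 to 1.90 in WT libraries (log2FC 1.31, SE 0.30, limma, BH adjusted p = 0.00659).

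The lactate and pyruvate carrier Slc16a1 (MCT1) read 2.59, 2.44, 1.50 and 1.16 in TG Me-X04+ against 0.07 to 1.10 in WT libraries (log2FC 1.43, SE 0.41, limma, BH adjusted p = 0.0244). Slc25a20, which brings acylcarnitines into mitochondria for fatty acid oxidation, read 1.07, 0.86, 1.45 and 1.42 against -1.17 to 0.56 (log2FC 1.28, SE 0.36, limma, BH adjusted p = 0.0218). Both stood above every WT library. The call of Slc16a1 was lost without TG Me-X04+ 1 or 2, and that of Slc25a20 without TG Me-X04+ 3 or 4. Slc16a7 and Slc25a30, named after their values were seen, also rose, by 1.26 and 1.05. The call of Slc16a7 was lost without WT 4, 5, 6 or 7 or TG Me-X04+ 1 or 2, and that of Slc25a30 without WT 1, 2, 4 or 5 or TG Me-X04+ 1 or 2. With only the 2 groups compared both were lost, as was Slc16a7 with the replicate block and Slc25a30 with scaling on non-mitochondrial reads and with voom (adjusted p up to 0.0858 by limma). Quantile normalization lost the call of Slc16a1 (adjusted p = 0.0557 by limma).

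The other 5 members fell. Slc40a1 (ferroportin, chr1:45908068-45926523, minus strand) stood at 3.16, 2.51, 2.45 and 2.57 log2 RPKM in TG Me-X04+ libraries, at 3.38, 3.85, 3.06, 3.17 and 3.71 in TG Me-X04- libraries and from 3.72 over a median of 4.06 to 4.65 in WT libraries. It was thus lower in every TG Me-X04+ than in every WT library, with 1 TG Me-X04+ library inside the range of TG Me-X04- (log2FC against WT -1.49, SE 0.24, limma, BH adjusted p = 0.000382). Slc5a3, which takes up myo-inositol with sodium, ran from WT libraries at 1.72 to 2.58 over TG Me-X04- libraries at 1.06 to 1.64 to 0.36, 0.55, 1.30 and 0.37 in TG Me-X04+ (log2FC -1.40, SE 0.26, limma, BH adjusted p = 0.00113). Slc25a45 read 3.54, 3.59, 4.05 and 3.58 against 4.34 to 4.76 in WT libraries (log2FC -0.88, SE 0.18, limma, BH adjusted p = 0.00205). Its log2FC of -0.66 between the dye fractions, with an adjusted p of 0.0469 by limma, missed the fold threshold.

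The last 2 rest on fewer libraries. Slc24a3, a potassium-dependent exchanger of sodium and calcium, had a log2FC of -0.93 (SE 0.30, limma, BH adjusted p = 0.0482) with overlapping groups, and the call was lost without WT 2, 3, 5, 6 or 7 or TG Me-X04+ 1, 3 or 4 (log2FC between -1.16 and -0.72, adjusted p up to 0.144 by limma) and in 5 of 8 alternatives (replicate block, quantile normalization, pseudocount, only the 2 groups compared and voom). Slc2a4rg-ps, a pseudogene and no carrier, read -0.53 and -0.81 in the TG Me-X04+ libraries of set A and 1.84 and 1.88 in those of set B, beside 1.84 to 2.47 in WT libraries. The sets gave -2.88 (A) and -0.10 (B), and the call (adjusted p = 0.0326 by limma) was lost without WT 1, 3 or 7 or TG Me-X04+ 1 or 2 and in 3 of 8 alternatives (replicate block, only the 2 groups compared and voom).

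**Figure D5:**
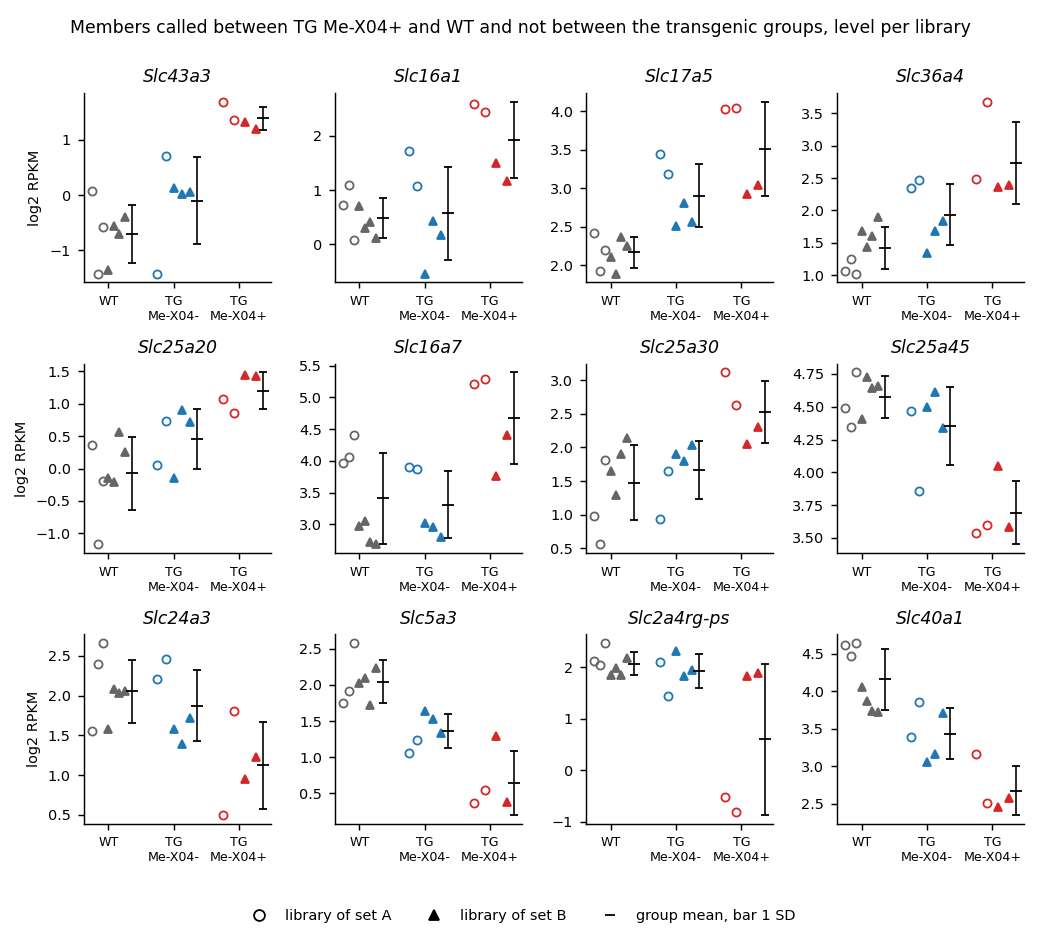
Level (log2 RPKM, vertical axis, scaled per panel) in each library of the 12 members called between TG Me-X04+ and WT and not between the dye fractions, with circles for set A, triangles for set B and the group mean with 1 SD in black. Slc17a5 and Slc5a3 show no overlap of WT with either transgenic group, and the low values of Slc2a4rg-ps in TG Me-X04+ are those of set A.

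Iron carriers that were called in a comparison are followed here over the 3 groups, where the step from WT also holds age. Slc40a1 was not called between the dye fractions, and the iron carriers Slc11a2 and Slc25a28 were called in none of the 3 comparisons. The mean log2 RPKM of Slc40a1, which exports iron, was 4.16 ± 0.41 (SD, n = 7) for WT, 3.43 ± 0.34 (n = 5) for TG Me-X04- and 2.67 ± 0.33 (n = 4) for TG Me-X04+ libraries. That of Slc25a37, which brings iron into mitochondria, was 5.15 ± 0.41, 4.43 ± 0.12 and 3.60 ± 0.11, and that of the phagosomal Slc11a1 was 3.93 ± 0.17, 4.17 ± 0.30 and 5.14 ± 0.13. The mean of Fth1 was 8.05, 8.66 and 10.2. The listed iron genes Tfrc, Ftl1, Hmox1, Ncoa4, Aco1 and Ireb2 were not called in any of the comparisons. Against WT, where 3 genes of the metal handling list rose and 1 fell, Mt1, a metallothionein, and Atox1, a copper chaperone, also rose, by 2.35 and 1.59, and Steap3, a ferrireductase of endosomes, fell by 2.63 on the log2 scale. Steap3 had at most 49 reads in any WT library and 61 in any TG Me-X04+ library, with 0 in the lowest library, which limits the precision of its fold. Its RPKM ran from 0.14 to 0.59 in WT and from 0.017 to 0.48 in TG Me-X04+ libraries, so the groups overlapped.

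Of the 69 solute carrier symbols below the threshold, 4 fell between the dye fractions (Slc5a10, Slc16a9, Slc1a4 and Slc7a3) and none rose, so that 5.8% of these 69 fell. Over all 210 symbols 5 rose (2.38%) and 9 fell (4.29%), beside 3.44% and 2.06% of all genes. Carriers of the same families that go under other symbols were listed too. Of 30 of these, Ank, which exports pyrophosphate, rose by 2.73 (SE 0.26) and Slco4a1, an organic anion transporter, fell by 3.20 on the log2 scale.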

How the data were processed

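Bulk RNA-seq of 16 libraries was used, grouped by the labels. The authors' deposited processing notes name Trim Galore 0.4.4, STAR 2.5.4b, featureCounts and edgeR 3.24.3. In the methods, reads were aligned to GRCm38 with up to 10 positions kept per read, counted on Gencode M16, filtered by filterByExpr and scaled by TMM. The authors deposited log2 RPKM per library, with a prior of 2 reads at the mean library size, and gene lengths in bases (used only to recover reads). Whole reads were recovered from these values in 100% of cases at a tolerance of 0.01 reads. The deposited table also holds the authors' own comparisons (scores, p-values with their adjusted form, mean expression and fold changes on the log2 scale), which were not used.

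The authors tested counts with edgeR's quasi-likelihood test, as stated in the methods. As the deposited values are log2 RPKM, limma 3.58.1 (with R 4.3.3, the data.table package, version 1.17.8, and a trend in the prior variance) was fitted to all 17951 genes with 1 coefficient per group, two-sided, with BH adjustment. Calls required a log2FC of 0.7 or more in size with an adjusted p below 0.05. Summaries and plots used Python 3.11.15, pandas 2.3.3, numpy 2.4.6 and matplotlib 3.10.9. The code was tested on simulated data. The depth was 15623664 to 27579017 reads per library. P-values measure the spread between these samples. By their labels, same-numbered libraries of the dye fractions come from 1 animal, and their deviations from the group means correlated at 0.292 to 0.329 (mean 0.317). Libraries of these fractions with other numbers had a mean correlation of 0.272 within a set and -0.282 between the sets. Most of this correlation thus went with the set of libraries.

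The members, substrate classes, 10 marker lists and 7 lists of partner genes were chosen with earlier results of these data known, and the classes were edited after symbols and mean levels had been seen. Named by rule were members called between the dye fractions or between TG Me-X04- and WT, the highest level and the extreme log2FC in each of 5 classes (sugars, amino acids, metals, nucleosides, ions), the 5 largest log2FC in each direction called only against WT, the 5 highest members and those next to the threshold. Other members are named as relatives or for their role, after their values were seen. Gene coordinates are from Gencode vM21 on GRCm38, a later release than the authors used. The strand used in counting is not given in the sources used here. Alternatives were the replicate block, quantile normalization, scaling by reads outside mitochondrial genes, a pseudocount of 1 RPKM, a filter at a mean log2 RPKM of 0, only the 2 groups compared, a term for the sets of libraries, voom on the recovered reads and each library left out. Fits on set A or set B alone were added after the data had been seen. Some items withheld for evaluation are not reported here.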

Additional observations from a re-analysis of the deposited data

Results flagged for a closer look

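In 6 of 96 groups of values tested for named members, 1 library stood apart from the rest by Dixon's criterion, which chance alone meets in about 1 in 20 groups. In WT, the level of Slc13a3 was -0.42 log2 RPKM in WT 2 against 0.642 to 1.21 in the other libraries, and that of Slc50a1 was 0.10 in WT 3 against 2.07 to 3.30. In TG Me-X04-, Slc2a5 was lowest in TG Me-X04- 1 at 4.73, against 5.16 to 5.25. In TG Me-X04+, Slc36a4 was highest in TG Me-X04+ 2 at 3.68 (the others 2.37 to 2.49), Slc40a1 in TG Me-X04+ 1 at 3.16 (2.45 to 2.57) and Slc25a45 in TG Me-X04+ 3 at 4.05 (3.54 to 3.59). The call of Slc2a5 between the dye fractions held without TG Me-X04- 1, and the calls of Slc36a4, Slc40a1 and Slc25a45 against WT held without each of these libraries.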

How the results depend on the processing

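Between the dye fractions 5 members rose and 5 fell. Percentages in brackets are the shares of all genes called in the same setting, higher and then lower. The member counts were 3 and 8 under quantile normalization (2.35%, 2.27%) and 2 and 12 under scaling on non-mitochondrial reads (1.72%, 4.02%). They were 2 and 3 with only the 2 groups compared (1.93%, 0.685%) and 11 and 8 with a term for the sets (7.38%, 4.56%). With voom on the recovered reads they were 8 and 4 (4.11%, 1.6%) and in set B alone 13 and 5 (7.4%, 5.2%). In set A alone they were 0 and 0 (0.351%, 0.123%), with 25 members at an unadjusted p under 0.05 by limma. With the replicate block by animal, 5 rose and 4 fell (2.73%, 1.99%), and Slc25a37 was the call lost. With 1 library left out, 4 to 6 rose and 2 to 6 fell, beside 1.89% to 3.02% and 1.18% to 2.76% of all genes. The lower count was 3 without TG Me-X04- 1, TG Me-X04+ 1 or TG Me-X04+ 2 and 2 without TG Me-X04- 3, 4 or 5. Between TG Me-X04- and WT no member was called, except 1 lower with a term for the sets (0.451%, 0.111%). Against WT, where 12 members of TG Me-X04+ rose and 10 fell, 23 rose with a term for the sets and 22 in set B alone. Beside these, 11.9% and 11.6% of all genes were called higher. The number that fell was 17 under quantile normalization, 17 under scaling on non-mitochondrial reads and 6 in set A alone. Beside these, 6.61%, 8.51% and 3.41% of all genes were called lower. With 1 library left out, 10 to 15 rose and 8 to 12 fell, beside 7.14% to 8.41% and 4.58% to 6.89% of all genes. WT libraries share only a number with the others, with correlations of same-numbered deviations down to -0.272 and -0.289. The block on that number gave 15 higher and 8 lower (8.76%, 5.37%) in TG Me-X04+ against WT. No named log2FC changed sign where it was called. Slc39a12 and Slc13a3 had 31 reads or fewer in every TG Me-X04+ library, which limits the precision of their folds. The cause of each change was not tested.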
